A study of Mus musculus with 4 samples.

Results

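The endothelial and mural cell genes are a list of 37 mouse genes that mark the cells of blood vessels, of which 22 were classed as endothelial, 11 as pericyte and 4 as smooth muscle genes. A gene's members on the array were the probes whose RefSeq accession belongs to it, which gave 48 probes for 36 of the 37 genes, among 41174 distinct probes in all. Ndufa4l2 matched no probe by accession. The RNAs came from whole brain of 50-week-old mice in 3 groups. These were senescence-accelerated SAMP8 mice fed whale meat extract (WME), SAMP8 mice fed a control diet with safflower oil (LSO), and senescence-resistant SAMR1 mice fed LSO. Per the labels, both strains go back to AKR/J with outbreeding to an unknown line suspected, and the diets ran for 26 weeks from 24 weeks of age. Behaviour was tested at 49 weeks of age, over 8 days, in all 3 groups. SAMP8 WME was hybridised with SAMP8 LSO on 2 arrays, and SAMP8 LSO with SAMR1 LSO on 2 others, the dyes being exchanged within each pair. The labels do not say how many mice each RNA came from, or of which sex. They describe the arrays of a pair as a dye swap, so each group was counted as 1 RNA, and with no samples named as replicates no test was made.

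Capillaries of the brain are tubes of endothelial cells joined by tight and adherens junctions, which form the blood-brain barrier. Pericytes lie on them within a shared basement membrane and are recruited by platelet-derived growth factor acting on the receptor encoded by Pdgfrb, while arteries and arterioles carry contractile smooth muscle cells. Endothelial cells read vascular endothelial growth factor through the Flt1 and Kdr receptors and angiopoietins through Tek and Tie1, and SoxF and ETS family transcription factors maintain their identity.

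All values are from 2-colour arrays read by the scanner software. On each array 0 probe spots were saturated and the scanner software marked between 81.5% and 85.6% of them in a channel as well above background, and with so few arrays the precision of each value is low. A log2 ratio is the mean over both arrays of a pair after loess normalization, turned so that it is SAMP8 WME over SAMP8 LSO (the diet pair) or SAMP8 LSO over SAMR1 LSO (the strain pair). The error given with it is the SD over the 2 arrays of a pair, which contains the probe's dye bias and was taken as technical. A second estimate of technical error was taken from the dye terms, subtracting that of one pair from that of the other, which cancels RNA differences and any dye bias that a probe has equally in both pairs. Over 33422 measured probes it had an SD of 0.050, and its central 95% lay between −0.10 and 0.094. To be called higher or lower, a gene had to pass 1.5-fold on each array of the pair, with the same sign, on its brightest measured probe. Of the 48 member probes 47 were measured, and the brightest probe of each of the 36 genes was well above background in all RNAs on all arrays. The probe left out was 1 of 3 for Sox17. Intensities printed below are normalized, linear and in arbitrary units, hold the offset of 50 added at background correction, and are not compared between probes.

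The strain pair asked how brains of SAMP8 and SAMR1 mice on the same diet differ. Most vascular genes had higher signals in SAMP8. The members past the 1.5-fold rule were 3 classed as pericyte genes: Kcnj8 (1.95-fold higher), Pdgfrb (1.82-fold) and Rgs5 (1.78-fold). Outside the members, 5 of 12 fibroblast and meningeal markers were called higher too, and their median log2 ratio of 0.41 equalled that of the pericyte members. In all, 3 of 36 members were called higher, against 1.04% of 14774 measured named genes, and 0 were called lower, against 0.426%. Above 0 on both arrays were 29 members and below 0 on both 2, against 25.9% and 23.4% of all named genes. The mean ratio of 29 members lay above the central 95% of technical error for probes of like intensity and that of 3 below it, against 20.2% and 13.4%. Of the 47 measured member probes 4 were called higher (the 3 genes above, Kcnj8 with both of its probes), against 0.911% of all measured probes, and 0 lower, against 0.52%. The members were chosen with earlier results of these data known, so counts set beside shares of all genes are a description. In bulk RNA, a difference in the number of cells of a type and a difference in RNA per cell cannot be told apart.

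**Figure D1:**
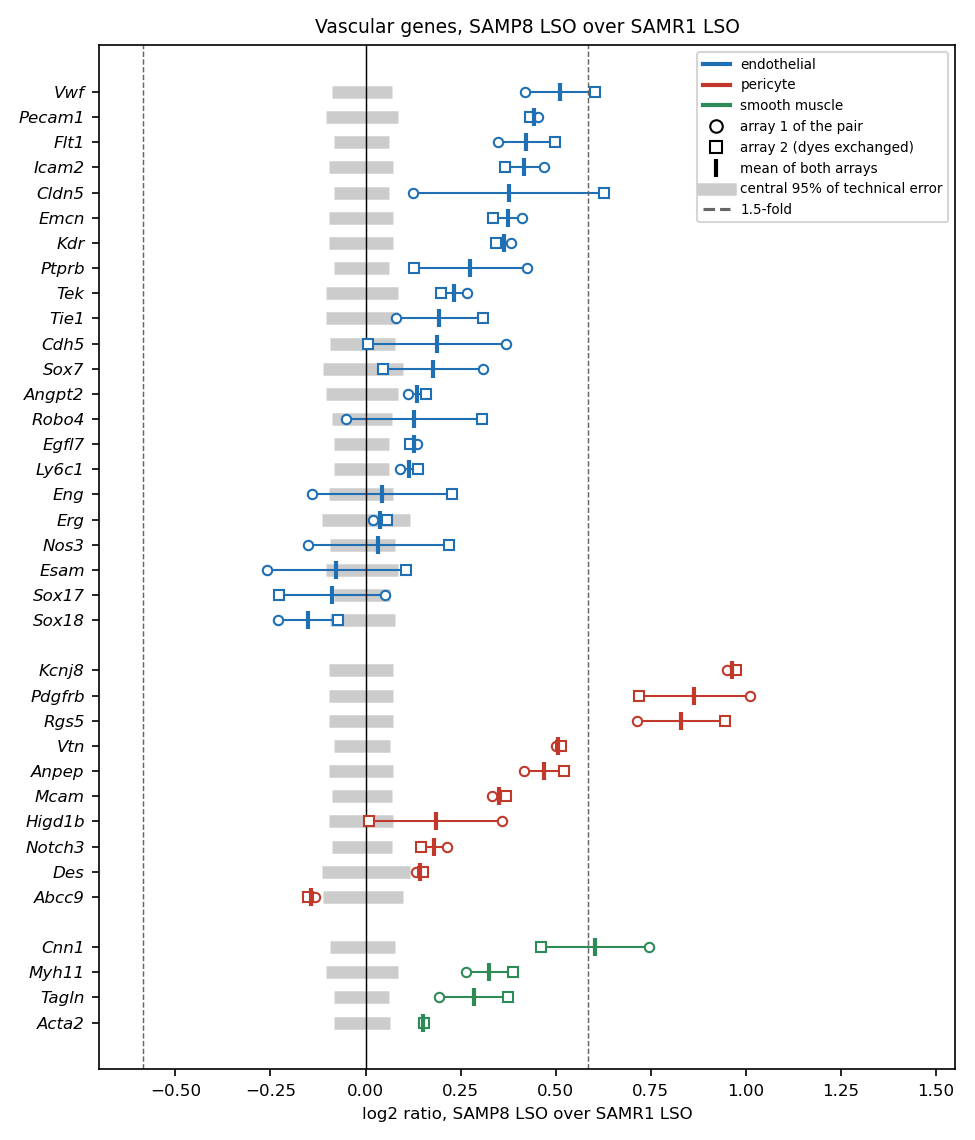
Log2 ratios of SAMP8 LSO over SAMR1 LSO for 36 vascular genes, by class. Circles and squares are the arrays of the pair with opposite dyes, ticks are their means, grey bars are the central 95% of technical error at the probe's intensity and dashed lines mark 1.5-fold. Kcnj8, Pdgfrb and Rgs5 lie beyond 1.5-fold on both arrays, and Abcc9 lies below 0 on both.

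Kcnj8 encodes the pore-forming subunit of the ATP-sensitive potassium channel of mural cells, which lowers contractile tone when it opens. Its brighter probe (A_51_P312795) read 1480.3 and 1483 in the SAMP8 LSO RNA, against 766 and 755 in the SAMR1 LSO RNA. The SAMP8 signals were higher on both arrays and the readings of the 2 RNAs did not overlap (log2 ratio 0.96 ± 0.02). Here and below, overlap refers to 2 technical readings of each RNA, and its share over all genes was not computed. Its dimmer probe (A_52_P225898) read 233 and 202 in SAMP8 LSO and 143 and 130 in SAMR1 LSO, a log2 ratio of 0.67 ± 0.04 that also passed 1.5-fold on both arrays (values 0.70 and 0.64).

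Abcc9 encodes the sulphonylurea receptor subunit that assembles with the Kcnj8 product, and it is the next gene on chromosome 6. All of its 3 probes were lower in SAMP8, with 0 called. Its brightest probe (A_51_P328850) read 219 and 210 in SAMP8 LSO, against 240.1 and 233 in SAMR1 LSO (−0.14 ± 0.01). The probe A_51_P328857 read 143 and 130 in SAMP8 LSO, against 191 and 177 in SAMR1 LSO (−0.43 ± 0.02). The probe A_52_P616224 read 129.5 and 130.2 in SAMP8 LSO, against 169 and 173 in SAMR1 LSO (−0.40 ± 0.02). The RNAs did not overlap on any of the 3 probes, and the 2 dimmer ones gave the larger difference. The probes of the 2 subunits thus had ratios of opposite sign between the strains. All 3 Abcc9 probes were well above background in both RNAs, with intensities of 129.5 to 240.1. The scanner software's processed signals gave −0.13, −0.78 and −0.89 for these probes in the same order.

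**Figure D2:**
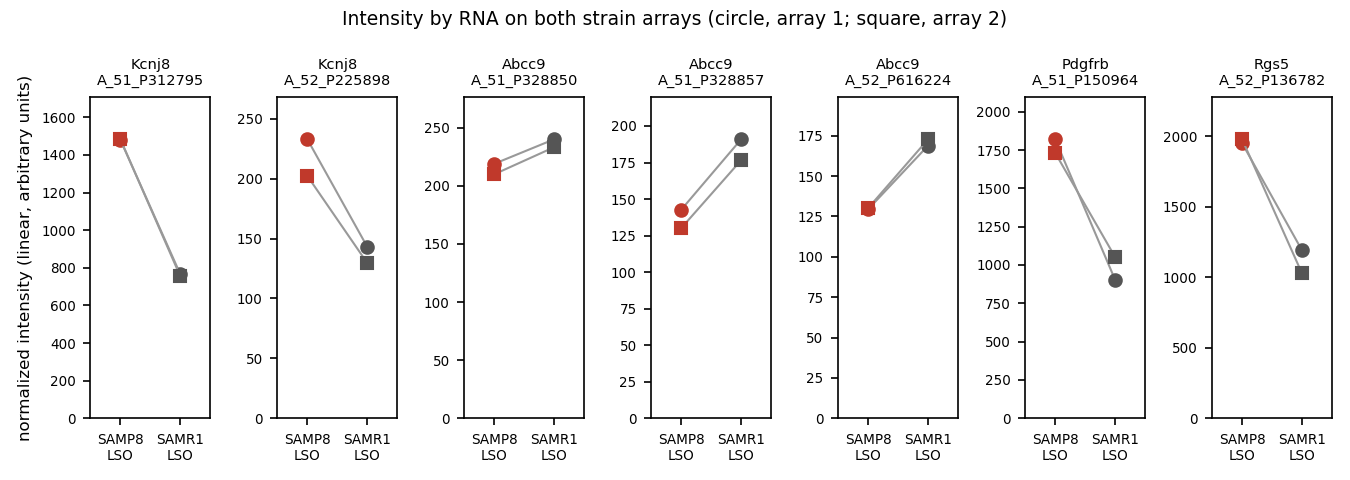
Normalized intensity (arbitrary units, linear axis from 0) in the SAMP8 LSO RNA and the SAMR1 LSO RNA for every probe of Kcnj8, Abcc9, Pdgfrb and Rgs5, with circles for array 1 and squares for array 2. SAMP8 LSO lies higher on all probes of Kcnj8, Pdgfrb and Rgs5 and lower on all 3 of Abcc9.

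Pdgfrb, the receptor through which endothelial platelet-derived growth factor recruits pericytes, read 1820.1 and 1732 in SAMP8 LSO, against 904 and 1052 in SAMR1 LSO (0.86 ± 0.21). Rgs5, a regulator of G protein signalling that is abundant in pericytes and arterial smooth muscle, read 1951 and 1978 in SAMP8 LSO, against 1190.3 and 1027 in SAMR1 LSO (0.83 ± 0.17). Each has 1 probe, and for both the RNAs did not overlap. Neighbouring genes were set beside these values after the values were seen. Of the 12 protein-coding genes nearest to Rgs5 on chromosome 1 (6 to each side), 9 were measured and 3 were called higher in SAMP8, namely Nuf2 (0.76 ± 0.11), Hsd17b7 (0.70 ± 0.03) and Ddr2 (0.71 ± 0.05). Rgs4, directly beside Rgs5 and another regulator of the same family, stood at 0.17 ± 0.13, and the 9 ran from −0.24 to 0.76. Around Kcnj8, 9 of the 12 nearest genes (Abcc9 among them) were measured and 0 were called, with ratios from −0.49 ± 0.16 (Pyroxd1) to 0.58 ± 0.15 (Recql). Around Pdgfrb, 7 were measured and 0 called. Of these, Hmgxb3 (0.37 ± 0.02), Ppargc1b (0.33 ± 0.17), Slc26a2 (0.31 ± 0.04) and Slc6a7 (0.21 ± 0.04) were above 0, and Csf1r (−0.11 ± 0.02), Tcof1 (−0.20 ± 0.06) and Camk2a (−0.22 ± 0.26) below. Whether the regions around these genes play a part in their values was not tested.

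The sequences at the start sites of the members with the highest strain ratios are shown as windows of 300 bases, which end 50 bases past the start that RefSeq annotates on GRCm38.p6, with Abcc9 beside its partner. Of the 37 genes 21 matched a promoter in the table, and the window of Pdgfrb is not shown. Each window is written 5′ to 3′ on the gene's strand. Capitals mark matches on either strand to the letters CCGGAA (core of ETS sites), GTGGGAA (RBPJ, which acts in Notch signalling), ACAAT (SOX), the TATA box letters TATAAA, the promoter element GGGCGG known as the GC box, or the CArG box of smooth muscle genes. The ETS and RBPJ letters overlap in GGAA, with which both end.
Kcnj8 (chr6:142571565-142571864, minus strand): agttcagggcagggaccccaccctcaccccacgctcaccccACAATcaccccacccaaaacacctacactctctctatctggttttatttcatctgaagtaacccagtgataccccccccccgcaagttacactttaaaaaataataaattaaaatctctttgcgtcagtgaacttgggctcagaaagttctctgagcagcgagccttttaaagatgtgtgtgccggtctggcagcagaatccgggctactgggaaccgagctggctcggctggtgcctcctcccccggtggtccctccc
Abcc9 (chr6:142702225-142702524, minus strand): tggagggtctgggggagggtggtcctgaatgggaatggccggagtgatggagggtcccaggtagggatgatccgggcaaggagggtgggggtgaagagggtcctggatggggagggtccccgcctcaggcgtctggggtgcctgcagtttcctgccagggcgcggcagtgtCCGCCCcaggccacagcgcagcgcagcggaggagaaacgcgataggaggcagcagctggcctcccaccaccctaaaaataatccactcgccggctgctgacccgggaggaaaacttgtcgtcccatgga
Rgs5 (chr1:169655251-169655550, plus strand): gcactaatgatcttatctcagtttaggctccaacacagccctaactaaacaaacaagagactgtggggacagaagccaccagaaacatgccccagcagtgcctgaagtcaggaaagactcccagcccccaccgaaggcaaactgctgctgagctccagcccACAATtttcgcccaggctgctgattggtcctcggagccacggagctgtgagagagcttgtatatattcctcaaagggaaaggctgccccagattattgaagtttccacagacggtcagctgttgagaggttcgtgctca
Cnn1 (chr9:22099003-22099302, plus strand): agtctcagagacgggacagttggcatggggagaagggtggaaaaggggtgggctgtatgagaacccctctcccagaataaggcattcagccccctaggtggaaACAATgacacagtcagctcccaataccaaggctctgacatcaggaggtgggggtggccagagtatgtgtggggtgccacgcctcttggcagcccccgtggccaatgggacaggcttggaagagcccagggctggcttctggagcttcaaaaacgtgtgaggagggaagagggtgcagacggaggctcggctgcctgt
The Kcnj8, Rgs5 and Cnn1 windows each hold ACAAT on the plus strand, beginning 209, 89 and 147 bases before the start, and the Abcc9 window holds none but has 1 GC box. Of 32851 promoters in the table, 31.0% hold ACAAT and 35.7% the GC box. Among the members with a promoter, ACAAT was in 4 of 11 endothelial, 2 of 8 pericyte and 1 of 2 smooth muscle genes. The GC box was in 5, 5 and 0 of them in the same order. Of the 32851 promoters, 1.63% hold the CArG box, 14.9% CCGGAA, 6.38% GTGGGAA and 13.6% TATAAA, and the 4 windows hold none of these. Among the members, in the same order of classes, CCGGAA was in 1, 0 and 0 and GTGGGAA in 2, 0 and 0. TATAAA was in 3, 1 and 0 of them and the CArG box in 0, 0 and 0. The letters are a description and show no binding.

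The other pericyte genes had smaller ratios in the strain pair. Vtn, which encodes the adhesive glycoprotein vitronectin made by brain pericytes, read 17197 and 17558 in SAMP8 LSO, against 12163 and 12301 in SAMR1 LSO (0.51 ± 0.01). Anpep, aminopeptidase N on the pericyte surface, read 1143 and 1201 in SAMP8 LSO, against 857 and 837 in SAMR1 LSO (0.47 ± 0.07). Both genes were higher on both arrays with no overlap, short of 1.5-fold. Mcam, an adhesion molecule of mural and endothelial cells, stood at 0.35 ± 0.03 on its brighter probe and at 0.20 ± 0.11 on the other. Notch3, the Notch receptor of mural cells (0.18 ± 0.05), and Des, the intermediate filament desmin (0.14 ± 0.01), were above 0 on both arrays. Higd1b, a mitochondrial membrane protein gene expressed in pericytes, had 0.36 and 0.0088 on the 2 arrays, so its ratio rests on 1 dye orientation.

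Smooth muscle genes were above 0 on both arrays in 4 of 4 cases. Cnn1, which encodes calponin, an actin-binding brake on contraction, read 775 and 684 in SAMP8 LSO, against 462 and 497 in SAMR1 LSO. Its ratio of 0.60 ± 0.20 passed 1.5-fold on 1 array (0.74) and not on the other (0.46). Myh11, smooth muscle myosin heavy chain, read 440.5 and 472 in SAMP8 LSO, against 367 and 361 in SAMR1 LSO (0.33 ± 0.09). Tagln, which encodes the actin-binding protein transgelin, stood at 0.28 ± 0.13 on its brighter probe and at 0.32 ± 0.11 on the other. Acta2, smooth muscle actin, stood at 0.15 ± 0.0006 on its brightest probe and at 0.35 ± 0.07 and 0.33 ± 0.25 on the others, so the size for this gene differs by probe while the direction does not. Actins are near-identical in sequence, and the Acta2 probes may share signal with other actin transcripts.

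Among endothelial genes 0 of 22 were called, 16 were above 0 on both arrays and 1 was below 0 on both. Vwf, the clotting factor stored in endothelial granules, read 3595 and 3832 in SAMP8 LSO, against 2690.0 and 2522 in SAMR1 LSO (0.51 ± 0.13), and its other probe gave 0.53 ± 0.06. Of the adhesion genes, Pecam1 read 391 and 390.5 in SAMP8 LSO, against 285.5 and 289.5 in SAMR1 LSO (0.44 ± 0.01), and Icam2 stood at 0.42 ± 0.07. Emcn, the sialomucin endomucin of capillaries and veins, had a ratio of 0.37 ± 0.055. For these genes the RNAs did not overlap on any probe. Cldn5, the main claudin of the blood-brain barrier, read 7498 and 9776 in SAMP8 LSO, against 6879 and 6326 in SAMR1 LSO. The RNAs did not overlap, but its array values of 0.12 and 0.63 differed and the mean was 0.38 ± 0.36. Cdh5, the cadherin of endothelial adherens junctions, stood at 0.19 ± 0.26 and 0.11 ± 0.01 on its 2 probes. Ly6c1, a surface antigen of brain endothelium, was at 0.11 ± 0.03, and its value is uncertain because near-identical Ly6 genes exist. Esam, an adhesion molecule of endothelial tight junctions, had opposite signs on the arrays (−0.26 and 0.11).

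Receptor genes of the endothelium differed in size. The vascular endothelial growth factor receptor gene Flt1 read 7288 and 7613 in SAMP8 LSO, against 5724 and 5395 in SAMR1 LSO (0.42 ± 0.10, and 0.28 ± 0.34 on its other probe). Kdr, which encodes the main signalling receptor for the same growth factor, read 1252 and 1275 in SAMP8 LSO, against 960.3 and 1005 in SAMR1 LSO (0.36 ± 0.03). The angiopoietin receptor Tek stood at 0.23 ± 0.05, its relative Tie1 at 0.19 ± 0.16 and Ptprb, the phosphatase that restrains Tek, at 0.28 ± 0.21. Angpt2, the angiopoietin that endothelial cells release, was at 0.14 ± 0.03. Robo4 (0.13 ± 0.25), a receptor of the Roundabout family, and Eng (0.04 ± 0.26), the TGF-beta co-receptor endoglin, had opposite signs on the arrays. The 8 genes of this group had a median of 0.21, and 6 were above 0 on both arrays.

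Among the endothelial members, the 4 transcription factor genes had the lowest median of the groups, −0.03, against 0.37 over the 7 junction and adhesion genes. Sox18 read 845 and 944 in SAMP8 LSO, against 992 and 994 in SAMR1 LSO (−0.15 ± 0.11), lower on both arrays. Sox17 had signs that differed between arrays on its brightest probe (0.05 and −0.23) and a ratio of −0.0059 ± 0.025 on its next probe. Sox7 stood at 0.18 ± 0.19, and Erg, an ETS family factor, at 0.04 ± 0.03. Of these, Sox7 and Erg were above 0 on both arrays. Transcription factor genes among the endothelial genes outside the members were set beside them after their values were seen. Fli1 stood at 0.35 ± 0.06 (its other probe at 0.37) and Tal1 at 0.20 ± 0.02. Ets1 stood at 0.08 ± 0.24 (its other probes at 0.06) and Gata2 at −0.04 ± 0.02 (its other probe at −0.12). Nos3, endothelial nitric oxide synthase, had opposite signs on the arrays (0.03 ± 0.26). Egfl7, a secreted vessel protein, was above 0 on both and above the technical error (0.13 ± 0.01). Within the endothelial list the ratios therefore ran from −0.15 (Sox18) to 0.51 (Vwf), a wider span than the technical error.

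The 3 classes were compared by their medians, with no test, since each group was counted as 1 RNA. Their members were chosen with earlier results of these data known. Pericyte genes had a median log2 ratio of 0.41 (range −0.14 to 0.96, 10 genes), smooth muscle genes 0.30 (0.15 to 0.60, 4 genes) and endothelial genes 0.18 (−0.15 to 0.51, 22 genes), against 0.0006 over all named genes. The pericyte median exceeded the endothelial median by 0.23, by 0.26 on array 1 and by 0.23 on array 2. The classes overlapped, since the 3 called pericyte genes stood above every endothelial gene and the other 7 lay within the endothelial range. Summed intensity over the pericyte genes was 29953 and 30239 in SAMP8 LSO, against 21179 and 21487 in SAMR1 LSO. Over the endothelial genes it was 59773 and 61232 in SAMP8 LSO, against 52518 and 51935 in SAMR1 LSO. At a lower threshold, a log2 ratio of at least 0.32 on both arrays, 6 of 10 pericyte, 1 of 4 smooth muscle and 6 of 22 endothelial genes were higher, against 2.57% of named genes, and 0 were lower, against 1.04%. Among vessel genes outside the members the gap was smaller, with medians of 0.13 for 28 mural genes and 0.09 for 27 endothelial genes. These medians were 0.17 and 0.07 on array 1, and 0.13 and 0.17 on array 2, where the order was reversed.

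Markers of other cells were set beside the vascular genes in the strain pair, where 25.9% of all named genes were above 0 and 23.4% below 0 on both arrays and 1.04% were called higher and 0.426% lower. Of 12 fibroblast and meningeal markers 10 were above 0 on both arrays and 5 were called higher (median 0.41), led by the collagen genes Col3a1 (0.96 ± 0.02, its other probe at −0.0077), Col1a1 (0.86 ± 0.0075, its other probes at 0.48 and 0.17) and Col1a2 (0.70 ± 0.06) and by the proteoglycan gene Fmod (0.68 ± 0.05). Their summed intensity was 41996 and 42994 in SAMP8 LSO, against 33116 and 32826 in SAMR1 LSO. All 9 measured blood cell markers were above 0 on both arrays (median 0.43), and S100a9 (1.31 ± 0.06) and S100a8 (1.11 ± 0.02), neutrophil proteins, were called higher. Their sum was 48961 and 48494 in SAMP8 LSO, against 35808 and 36599 in SAMR1 LSO. The 8 neuron markers had a median of 0.0014 with 0 above 0 on both arrays, and sums of 430360 and 393573 in SAMP8 LSO, against 421955 and 417081 in SAMR1 LSO. Of the neuron markers Snap25, a synaptic vesicle fusion protein gene, stood at −0.10 ± 0.36 and Nefm, which encodes a neurofilament protein, at 0.08 ± 0.15. The other 4 lists had 0 called. Astrocyte markers had a median of 0.04 (10 measured, 4 above 0 and 4 below 0 on both arrays), while Gfap, the astrocyte intermediate filament gene, stood at 0.55 ± 0.21. Aqp4, the water channel of astrocyte endfeet on vessels, stood at 0.41 ± 0.10, and its other probes at 0.37 and 0.44. Microglia and macrophage markers had a median of 0.07 (11 measured, 5 above and 4 below), with Mrc1, a mannose receptor of perivascular macrophages, at 0.56 ± 0.10 and Aif1, a calcium-binding protein of microglia, at 0.28 ± 0.14. Oligodendrocyte markers had a median of 0.11 (7 measured, 3 above and 1 below), with the myelin genes Opalin at 0.47 ± 0.20 and Mbp at −0.22 ± 0.95. Choroid plexus and ependymal markers had a median of −0.13 (7 measured, 1 above and 5 below), with the folate receptor gene Folr1 at −0.32 ± 0.32 and Rarres2, which encodes chemerin, at 0.22 ± 0.07. A log2 ratio of 0.32 on both arrays was passed upward by 5 fibroblast and meningeal, 6 blood cell, 2 astrocyte, 1 microglia and macrophage and 1 oligodendrocyte genes, against 2.57% of named genes, and by 0 neuron and 0 choroid plexus and ependymal genes. All measured markers of the 7 cell types were well above background in both RNAs. The part of these markers' cells in the vascular ratios was not tested.

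**Figure D3:**
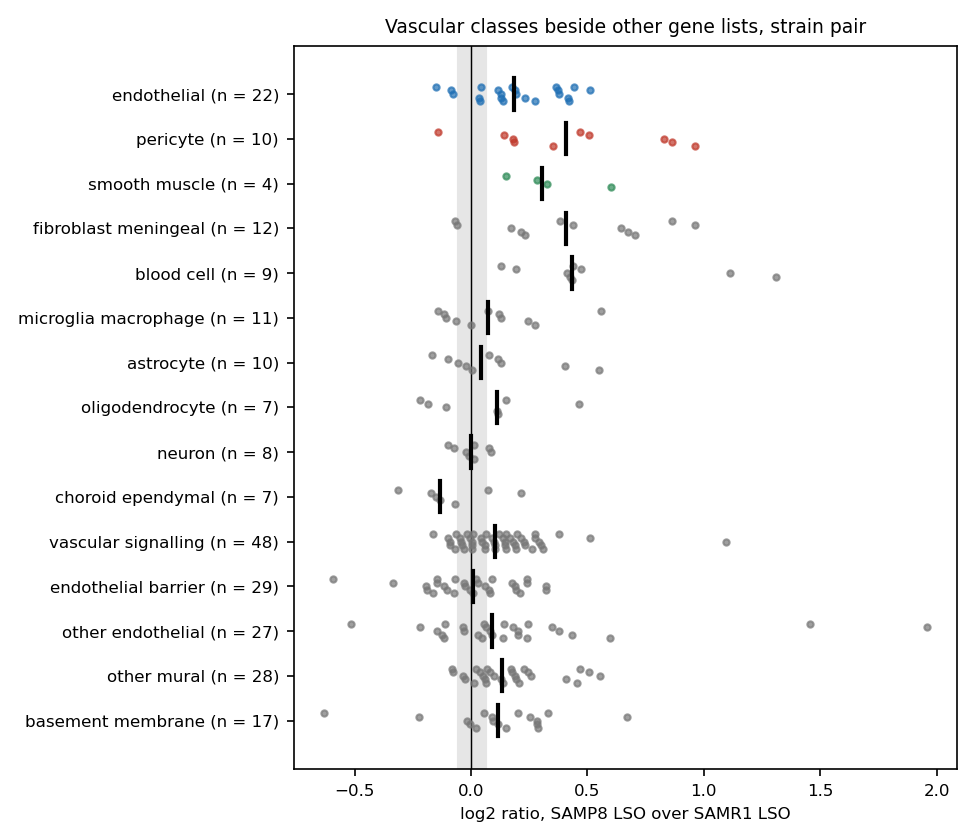
Log2 ratios of SAMP8 LSO over SAMR1 LSO for the 3 vascular classes and for other gene lists, 1 point per measured gene, with a black bar at the median. The grey band is the interquartile range of all named genes. The medians of blood cell (0.43), pericyte (0.41) and fibroblast and meningeal genes (0.41) lie farthest to the right of the band. Those of neuron (0.0014), endothelial barrier (0.0072) and astrocyte genes (0.04) lie inside it. That of choroid plexus and ependymal genes (−0.13) lies to its left. All other medians, endothelial (0.18) and smooth muscle (0.30) among them, also lie to its right.

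Other genes of the vessel wall were described from lists in the strain pair. Of all named genes 25.9% were above 0 and 23.4% below 0 on both arrays. Called higher were 1.04% of them and lower 0.426%. Of 48 genes of vessel signalling, 27 were above 0 on both arrays, 7 were below and 1 was called higher (median 0.10). This was Calcrl, the receptor subunit for adrenomedullin and calcitonin gene-related peptide (1.09 ± 0.03, its other probe at 0.20). Among the ligands of the receptors above, Vegfa stood at 0.28 ± 0.05 (its other probes at 0.30 and 0.43), Angpt1 at 0.23 ± 0.0039 (its other probe at −0.11), the Notch ligand Jag1 at 0.20 ± 0.16 (its other probe at −0.02) and Pdgfb, the ligand for Pdgfrb, at −0.04 ± 0.0063 (its other probe at 0.06). These ligands were picked after their values were seen. Genes of the same ligand families were mostly nearer to 0 or below it. Vegfc stood at 0.19 ± 0.05, Dll4 at 0.12 ± 0.20, Pgf at 0.06 ± 0.07, Vegfb at 0.045 ± 0.09 and Pdgfa at 0.0032 ± 0.10. Below 0 were Vegfd (−0.05 ± 0.06), Jag2 (−0.09 ± 0.08) and Dll1 (−0.17 ± 0.12). The 28 measured mural genes outside the members had a median of 0.13, with 17 above 0 and 2 below 0 on both arrays and 0 called. The largest of them were the transporter gene Slc6a20a (0.55 ± 0.12) and Tbx18, a transcription factor of pericytes and smooth muscle (0.51 ± 0.06, its other probe at 0.31). The 27 measured endothelial genes outside the members had a median of 0.09, with 15 above 0 and 6 below 0 on both arrays, and 2 were called higher, the drug pump gene Abcb1a (1.96 ± 0.065) and the surface antigen gene Ly6a (1.45 ± 0.16). The 29 genes of the endothelial barrier and its Wnt signalling had a median of 0.0072, with 10 above 0 and 7 below 0 on both arrays. In that list Mfsd2a, the lipid transporter that restrains transcytosis at the blood-brain barrier, stood at −0.59 ± 0.14 and Reck, a co-receptor for Wnt signals, at −0.33 ± 0.13, with 0 called.

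The diet pair asked how WME changed the brain of SAMP8 mice. Called higher were 0 of 36 members, against 0.0681% of 14685 measured named genes, and called lower were 0, against 0.0409%. Of the member probes, too, 0 were called higher and 0 lower, against 0.0563% and 0.0237% of all measured probes. A log2 ratio of 0.32 on both arrays was reached upward by 0 members and downward by 0, against 0.163% and 0.109% of named genes. Of the members 3 were above 0 on both arrays and 14 below, against 20.7% and 14.6% of named genes, and 19 had opposite signs. The mean ratio of 3 members lay above the central 95% of technical error and that of 11 below it, against 11.1% and 6.12% of named genes. The correlation of the pair's arrays with each other was r = −0.26 over 14685 genes. Genes are no independent replicates, and each probe carries its dye bias into both arrays with opposite sign.

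**Figure D4:**
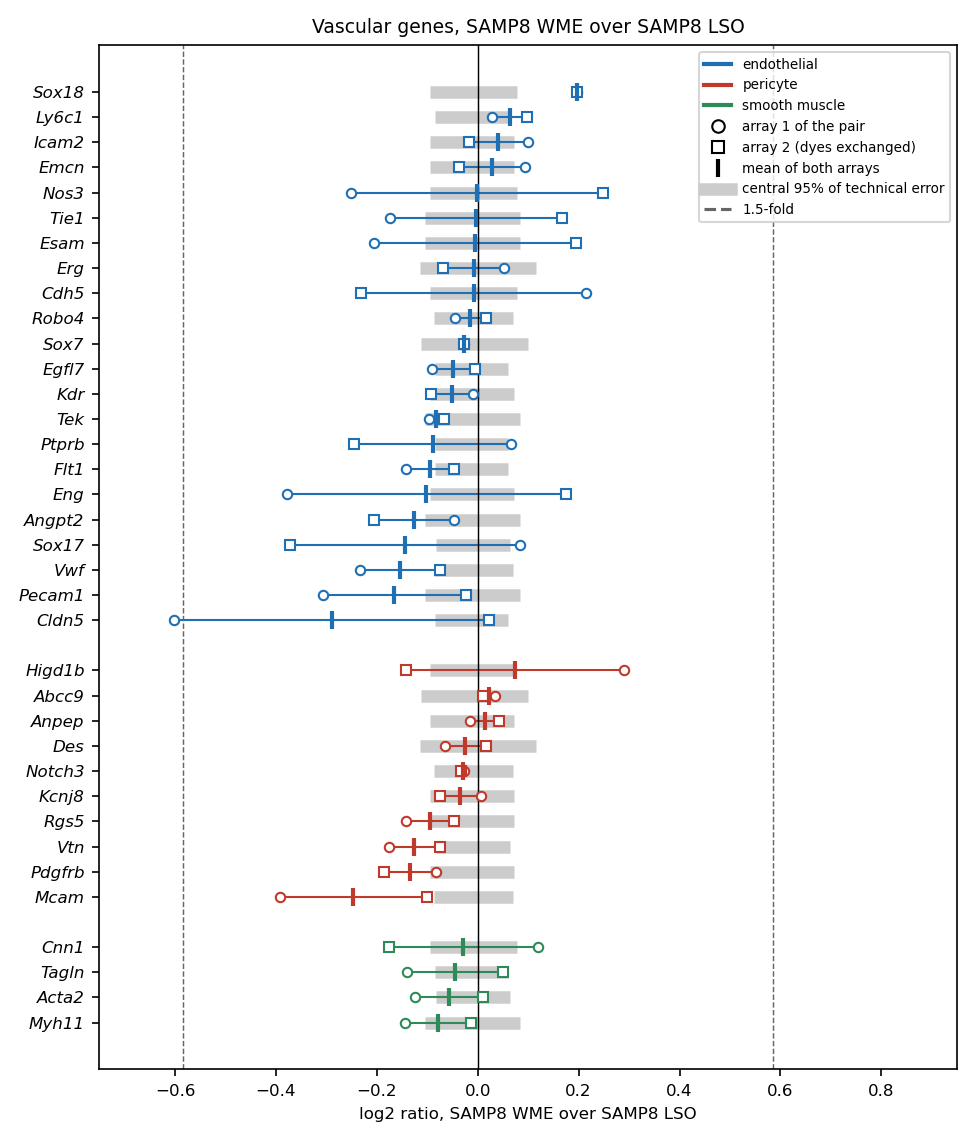
Log2 ratios of SAMP8 WME over SAMP8 LSO for the same 36 genes, drawn as for the strain pair. No gene passes 1.5-fold on both arrays, and 19 genes have opposite signs on the arrays.

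Cldn5 had the lowest ratio of the diet pair, but on 1 dye orientation alone. It read 6347 and 7284 in SAMP8 WME, against 9635 and 7168 in SAMP8 LSO, array values of −0.60 and 0.02 (mean −0.29 ± 0.44), and the RNAs overlapped. Mcam read 1649 and 1927 in SAMP8 WME, against 2164 and 2066 in SAMP8 LSO. It was lower on both arrays without overlap (−0.25 ± 0.21), and its other probe gave −0.18 ± 0.22. Sox18 had the highest ratio, 0.20 ± 0.0004, with 1061 and 1038 in SAMP8 WME, against 926 and 906 in SAMP8 LSO. Among the genes that differed most between the strains, Kcnj8 read 1397 and 1410.2 in SAMP8 WME, against 1391 and 1485 in SAMP8 LSO (−0.03 ± 0.06). Pdgfrb stood at −0.13 ± 0.07 and Rgs5 at −0.09 ± 0.07, and the 3 Abcc9 probes lay between −0.06 and 0.04. Of the other members, Pecam1 (−0.17 ± 0.20), Vwf (−0.15 ± 0.11), Angpt2 (−0.13 ± 0.11), Vtn (−0.13 ± 0.07) and Flt1 (−0.09 ± 0.07) were below 0 on both arrays. Ly6c1 (0.06 ± 0.05) was above.

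The class medians of the diet pair were −0.03 for pericyte, −0.05 for smooth muscle and −0.04 for endothelial genes, against 0.0057 over all named genes. The smooth muscle median depended on the array, at −0.13 on array 1 and −0.0016 on array 2, and the pericyte median was −0.046 on array 1 and −0.060 on array 2. When arrays were centred on their median without loess, the median of all named genes moved to 0.13 and those of the classes to 0.07, 0.10 and 0.07 in the same order, so that their sign depends on the scaling while all stayed below the median of all genes. Fibroblast and meningeal markers had a median of −0.15 in this pair, with 8 of 12 below 0 on both arrays and sums of 39309 and 40719 in SAMP8 WME, against 43006 and 42338 in SAMP8 LSO. Blood cell markers had a median of −0.32, with 7 of 9 below 0 on both arrays and S100a9 (−1.09 ± 0.06) and S100a8 (−0.80 ± 0.12) called lower. Of all named genes 14.6% were below 0 on both arrays of this pair and 0.0409% were called lower. The sum of the blood cell markers was 41429 and 38902 in SAMP8 WME, against 43509 and 47526 in SAMP8 LSO. Their part in the vascular values was not tested. The fibroblast genes with the largest diet ratios were Col3a1 (−0.32 ± 0.04, its other probe at 0.06) and Fmod (−0.22 ± 0.27). For Fmod the SD over the arrays was larger than the ratio.

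The other lists had 0 called in the diet pair. Genes of vessel signalling had a median of −0.0092, and the largest ratios were those of Edn1, which encodes the vasoconstrictor endothelin (−0.22 ± 0.15), and of the chemokine gene Cxcl12 (−0.19 ± 0.14, its other probe at 0.004). The barrier list had a median of −0.014, with Cavin1, a caveolar coat gene, at −0.14 ± 0.13 (its other measured probe at −0.23) and Adgra2, a co-receptor for Wnt signals, at −0.11 ± 0.18. The other endothelial genes had a median of −0.025, with the lectin gene Clec14a at −0.21 ± 0.10 (its other probe at −0.05) and the amino acid transporter gene Slc38a5 at −0.16 ± 0.0033. The other mural genes had a median of 0.0075, with the transcription factor gene Zic1 at −0.23 ± 0.28 and Slc6a20a at −0.21 ± 0.04. Astrocyte markers had a median of −0.10, with Aldoc at −0.18 ± 0.62 and Aldh1l1, both of them metabolic enzyme genes, at −0.13 ± 0.04. Microglia and macrophage markers (0.03) were led by Tmem119 at 0.17 ± 0.10 and P2ry12 at 0.11 ± 0.22, genes of microglial surface proteins. Oligodendrocyte markers (−0.04) were led by Opalin at −0.14 ± 0.11 and Mbp at −0.08 ± 0.84, and neuron markers (−0.02) by Snap25 at 0.06 ± 0.41 and the splicing factor gene Rbfox3 at −0.055 ± 0.39. Choroid plexus and ependymal markers (0.05) were led by Kl, which encodes klotho, at 0.15 ± 0.07 and by Folr1 at 0.10 ± 0.18. The SD over the arrays was larger than the ratio for Adgra2, Zic1, Aldoc, P2ry12, Mbp, Snap25, Rbfox3 and Folr1.

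The same SAMP8 LSO group is the denominator of the diet pair and the numerator of the strain pair, so that values of both pairs are not independent.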

How the data were processed

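Whole-brain RNA of 3 groups was compared on 4 arrays, each pair of RNAs on 2 arrays with the dyes exchanged, counted as 1 replicate. All 4 arrays lay on 1 slide. The authors' deposited scanner files hold raw median spot and background intensities and processed intensities that are background-subtracted and dye-normalized, which per the file headers come from Agilent Feature Extraction, in version 11.0.1.1 by the submitters' processing notes. The deposited files' log10 ratio was only compared with their processed signals. The deposited series table holds log2 ratios that equalled log2 of Cy5 over Cy3 processed signal on every probe (largest difference 5e-09), with the sign not turned for swapped dyes and no further centring (column medians −0.0182 to 0.017).

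From these files, median intensities were background-corrected by normexp with an offset of 50, which pulls ratios of dim probes towards 0, and normalized by loess within arrays with limma 3.58.1 under R 4.3.3, control spots having weight 0. Intensities per RNA were taken after Aquantile normalization between arrays. Outlier spots (105 to 123 per array) were dropped and replicate spots averaged per probe. Probes were named through RefSeq accessions on GRCm38.p6 (23366 of 41174 named). The array files name a different build, so this annotation gave names and gene order alone. A gene was represented by its brightest measured probe. Measured means well above background in at least 1 RNA on both arrays. Technical error was binned into 10 classes of intensity.

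No test was run, since each group was counted as 1 RNA. All members are named, with up to 4 called genes of each other list, or the 2 of largest ratio where a list had no call. The ligands of member receptors, the chromosomal neighbours, the background of the lower threshold and the Abcc9 promoter were chosen after the values were seen. So were the transcription factor genes named from the endothelial genes outside the members. The members and lists were chosen with earlier results of these data known. On simulated signals of bright probes, 50 of 50 changes of 2-fold in the diet simulation and 49 of 50 in the strain simulation were called, with 8 and 9 of 50 changes of 1.5-fold. The alternatives were median centring, processed signals, an offset of 10, other filters on dim probes, the median over probes, single arrays, the lower threshold of 0.32 on the log2 scale and classes without genes known from another vascular class.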

Additional observations from a re-analysis of the deposited data

How the results depend on the processing

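The 3 strain calls, Kcnj8, Pdgfrb and Rgs5, were made under median centring, processed signals, an offset of 10, both filters on dim probes and the median over probes, with 0 members called lower under each. With processed signals the 2 dimmer Abcc9 probes, which do not represent the gene, passed 1.5-fold lower on both arrays. Their array values were −0.80 and −0.76 for A_51_P328857, and −0.95 and −0.82 for A_52_P616224. At a log2 ratio of 0.32 on both arrays 13 were higher. On single arrays the count of higher members was 4 to 5 (Cnn1 joined on one, Cldn5 and Vwf on the other), and in the diet pair the count of lower members was 0 to 1 (Cldn5). Strain ratios of 36 members had the main sign in 36 cases under median centring and in 35 with processed signals, where diet ratios had it in 15 and 33. Under median centring the diet medians were 0.069 (endothelial), 0.070 (pericyte) and 0.099 (smooth muscle), the strain pericyte median 0.36 and its excess over the endothelial median 0.18. Processed signals gave diet medians of −0.061 (endothelial) and −0.066 (pericyte). With them 55 named genes were called higher and 22 lower in the diet pair (10 and 6 with the normalization of the report), and 258 higher and 109 lower in the strain pair (154 and 63). Single arrays called 10 and 66 higher and 53 and 14 lower in the diet pair, and 193 and 251 higher and 125 and 90 lower in the strain pair. With the median over probes the strain excess was 0.21. Without members known from another vascular class the pericyte median was 0.014 (diet) and 0.47 (strain), and its excess over the endothelial one 0.041 (diet) and 0.28 (strain). Leaving out 1 array each, the diet pericyte median was −0.060 to −0.046, the diet smooth muscle median −0.13 to −0.0016, the diet excess −0.036 to 0.0004 and the strain excess 0.23 to 0.26. The cause of these shifts was not tested, except that single arrays hold the dye bias of 1 orientation. No paired analysis was possible because each group was counted as 1 RNA. The slide could not be used as a block, since all arrays share it. In dim probes such as those of Abcc9, Des and Erg the offset is a larger part of the signal.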

Other observations

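Genes of the vessel basement membrane, the matrix sheet that endothelial cells and pericytes share, had a median log2 ratio of 0.12 in the strain pair (17 measured), with 10 above 0 and 2 below 0 on both arrays, against 25.9% and 23.4% of all named genes. Called higher were 1.04% and lower 0.426% of named genes. The 1 gene called was lower in SAMP8. This was Timp3, an inhibitor of metalloproteinases held in the matrix (−0.63 ± 0.04). Nid1, which encodes the linker protein nidogen, had the highest ratio (0.67 ± 0.27) and passed 1.5-fold on 1 array, and it was picked after its value was seen. In the diet pair the list had a median of −0.05 with 0 called, and the largest ratios were those of Sparc (−0.16 ± 0.02), a collagen-binding matrix protein, and Col18a1 (−0.15 ± 0.01), a collagen of vessel basement membranes.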
